A study of Mus musculus with 8 samples.

Results

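Hnrnpk and the 4 genes of the poly(C)-binding protein family, Pcbp1, Pcbp2, Pcbp3 and Pcbp4, were followed in mouse embryonic stem cells that carried shRNAs against Sox2, Hnrnpk or Cdk9. These genes were chosen by name, because their proteins are the KH-domain proteins closest to hnRNPK, and with earlier results of these data known. All 5 were found among the 55335 genes of the count table. RNA-seq was done on E14 ESCs, a feeder-free line kept on gelatin with LIF and 2 inhibitors of differentiation (CHIR99021 and PD0325901). The 4 groups of 2 biological replicates were control shRNA, Sox2-KD, hnRNPK-KD and Cdk9-KD, and every group, control included, carried a lentiviral GV248 shRNA vector and had been selected with puromycin. In 1 of the 2 libraries labelled as Hnrnpk knockdown the Hnrnpk mRNA was not below control, and that group is called hnRNPK-KD-labelled throughout. The study designed 2 shRNAs for each of the 3 targets, and which of them a library received is not given in the sources used here.

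hnRNPK and the PCBP proteins bind single-stranded, cytosine-rich RNA and DNA through 3 KH domains each. hnRNPK is a mostly nuclear protein that takes part in transcription, splicing and translation and is needed for early mouse development. PCBP1 and PCBP2 are found in nearly all cells, where they stabilise mRNAs, control translation and splicing, and carry iron to ferritin and to other iron proteins. PCBP3 and PCBP4 are less studied relatives with more restricted expression, and PCBP4 has been described as a p53-induced regulator of the cell cycle.

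The 2 targets of the Hnrnpk shRNAs are shown first, with the closest stretch in each paralog, because they show how far the shRNA sequences lie from the rest of the family. Both match Hnrnpk (ENSMUSG00000021546.18), which lies on the − strand of chromosome 13 of GRCm38 from 58391142 to 58403343. Bases in capitals differ from the target, and each line reads 5′ to 3′ in the sense of the mRNA.
hnRNPK-shRNA1, Hnrnpk, chr13:58393312-58393332: cggattaaacaaattcgtcat
closest in Pcbp1, chr6:86524747-86524767: AggTttTaaATaattTgtAaG
closest in Pcbp2, chr15:102488353-102488373: cTgTtAaaaAaaattcAtTaC
closest in Pcbp3, chr10:76763338-76763358: AAAatCaaTGaaatCcgAcaG
closest in Pcbp4, chr9:106455950-106455970: TggaGCaGaAaaattGgtAGA
hnRNPK-shRNA2, Hnrnpk, chr13:58394136-58394156: gggttcagtgctgatgaaact
closest in Pcbp1, chr6:86526229-86526249: gggtCcTgCgcGgaAAGCact
closest in Pcbp3, chr10:76789808-76789828: gCCtCcagtgACACtgCGact
closest in Pcbp4, chr9:106453900-106453920: TTgttcGCAgctgatgTCact

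The target of hnRNPK-shRNA1 lies in the coding part of exon 17 of 18 and that of hnRNPK-shRNA2 in the coding part of exon 14. Over all annotated transcripts of the paralogs, the closest stretch to hnRNPK-shRNA1 had 8 mismatches of 21 bases in Pcbp1, 7 in Pcbp2, 9 in Pcbp3 and 9 in Pcbp4. For hnRNPK-shRNA2 the fewest mismatches were 8 in Pcbp1, 7 in Pcbp2, 9 in Pcbp3 and 7 in Pcbp4. The closest stretch to hnRNPK-shRNA2 in Pcbp2 crosses an exon junction (102488268 to 102488786 on chromosome 15) and is ggAttcagtgGCATtgaaTcC. The longest unbroken match in these closest stretches was 7 bases. They lie in the 3′ UTR of Pcbp1, the coding sequence of Pcbp3 and noncoding transcripts of Pcbp2 and Pcbp4 for hnRNPK-shRNA1, and in the 5′ UTR of Pcbp1 and Pcbp4 and the coding sequence of Pcbp2 and Pcbp3 for hnRNPK-shRNA2, and where several stretches tied, 1 is shown.

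The paralogs lie on separate chromosomes. Pcbp1 (ENSMUSG00000051695.6; chromosome 6, 86524492 to 86526321, − strand) has 1 exon of 1830 bases. Pcbp2 (ENSMUSG00000056851.14; chromosome 15, 102470539 to 102500061, + strand) has 31 annotated transcripts. Pcbp3 (ENSMUSG00000001120.15; chromosome 10, 76761857 to 76961887, − strand) spans 200031 bases and has 9. Pcbp4 (ENSMUSG00000023495.13; chromosome 9, 106453291 to 106464012, + strand) has 23, and Hnrnpk has 34, of which 21 are coding. Of the 34, 13 carry the whole site of hnRNPK-shRNA1 and 11 that of hnRNPK-shRNA2. The part of the Hnrnpk mRNA that these transcripts make up was not measured. In the coding sequence Pcbp1 and Pcbp2 are the closest pair, with 82.3% of aligned bases identical. Identity of Pcbp3 with the other Pcbp genes was 72.8% to 74.6%, that of Pcbp4 with Pcbp1 and Pcbp2 67.4% and 69.5%, and that of Hnrnpk with the 4 paralogs 59.0% to 60.8%. The longest stretch that any pair of the 5 mRNAs shares is 33 bases, between Pcbp1 and Pcbp2, which is shorter than the sequenced reads.

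Library totals were 16709201 to 17719366 counts. Levels are given as TMM-normalized counts per 1000000 counts of the library (CPM), with library sizes scaled by the trimmed mean of M-values. A gene was called when its adjusted p (edgeR quasi-likelihood test, Benjamini-Hochberg over 16504 tested genes) was under 0.05 and its absolute log2 fold change (log2FC) over 0.6, and all 5 genes passed the filter on low counts. The labels do not say how the replicates were separated, so that p-values measure the spread between these libraries, and 2 libraries against 2 cannot give a permutation p below 0.333. Pluripotency markers (8 genes) summed to 6820 to 7040 CPM in control and 5989 to 6541 CPM in Sox2-KD. The sums were 6811 to 7112 CPM in the hnRNPK-KD-labelled libraries and 6960 to 8050 CPM in Cdk9-KD, so that both Sox2-KD libraries were below all others. Against control, 7 of the 8 genes had a log2FC below 0 in Sox2-KD, and 0 were called. Fibroblast markers (6 genes) summed to at most 6.19 CPM. Trophectoderm markers (7 genes) summed to 156 to 284 CPM in Sox2-KD against 45.6 to 58.3 CPM in control, and to 65.0 to 113 CPM in the hnRNPK-KD-labelled libraries and 69.6 to 72.4 CPM in Cdk9-KD. In Sox2-KD 4 of the 5 tested were called higher (Krt8, Krt18, Eomes and Gata3), beside 4.32% of all tested genes, and Krt8 and Krt18 carried most of the sum. The defining gene Cdx2 stood at 6.10 and 6.22 CPM against 19.8 and 35.1 CPM in control (log2FC −2.15, adjusted p = 0.0521). Eomes was higher than control in every shRNA group and highest in Cdk9-KD. It was 3.83 and 2.58 CPM in control, 8.96 and 9.25 CPM in Sox2-KD, 8.09 and 7.92 CPM in the hnRNPK-KD-labelled libraries, and 19.5 and 14.3 CPM in Cdk9-KD. In Cdk9-KD 1 of the 5 tested was called higher, beside 0.139% of all tested genes. The higher sum of the hnRNPK-KD-labelled libraries came mostly from Cdx2 in replicate 2, at 85.1 CPM against 20.3 CPM in replicate 1. Primitive endoderm markers (7 genes) summed to 43.1 to 62.5 CPM in Sox2-KD against 3.83 to 5.10 CPM, mostly from Dab2, with 2 of 5 tested genes called higher (Dab2 and Gata6) and Gata4 at 1.15 and 0.457 CPM against 0.957 and 0.974 CPM. The part of these genes' cell types in the Sox2-KD values below was not tested, and in bulk RNA fewer cells of a type cannot be told apart from less RNA per cell.

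The knockdown targets were checked first. The Hnrnpk mRNA stood at 697 CPM in replicate 1 and 1144 CPM in replicate 2 of the hnRNPK-KD-labelled libraries, against 1094 and 1131 CPM in control, so that replicate 2 was above both control libraries and replicate 1 below all 7 other libraries. Sox2 was called lower in Sox2-KD (log2FC −0.64, SE 0.16, edgeR adjusted p = 0.0479), with 320 and 284 CPM against 412 and 530 CPM, and it was called in 6 of 17 alternatives (adjusted p 0.00677 to 0.311). The call was lost without either control library, either Sox2-KD library or either hnRNPK-KD-labelled library, and with library totals, with either other filter on low counts, with the fit limited to both groups compared, and with the replicate block. Cdk9 was 73.1 and 53.2 CPM in Cdk9-KD against 109 and 129 CPM in control (log2FC −0.91, SE 0.18, adjusted p = 0.0985) and was not called. DESeq2 (adjusted p = 0.000601) and the likelihood ratio test (adjusted p = 0.000970) called it with all 8 libraries, and so did the fit without Cdk9-KD replicate 1 (log2FC −1.19, adjusted p = 0.0459), in which the lone library is assumed to vary like the other groups.

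No member of the family was called in any of the 6 comparisons between groups. Over all tested genes the share called was 4.32% in Sox2-KD against control, 0% in the hnRNPK-KD-labelled libraries against control and 0.139% in Cdk9-KD against control. Between shRNA groups it was 5.9% for Sox2-KD against the hnRNPK-KD-labelled libraries, 7.33% for Sox2-KD against Cdk9-KD and 0% for Cdk9-KD against the hnRNPK-KD-labelled libraries. At an unadjusted p under 0.05 there was 1 member in Sox2-KD against control (Pcbp3; 19.3% of all genes) and 1 in Sox2-KD against Cdk9-KD (Pcbp2; 21.7% of all genes), and 0 in the other 4 comparisons. DESeq2 and the edgeR likelihood ratio test also called 0 members in each comparison.

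**Figure D1:**
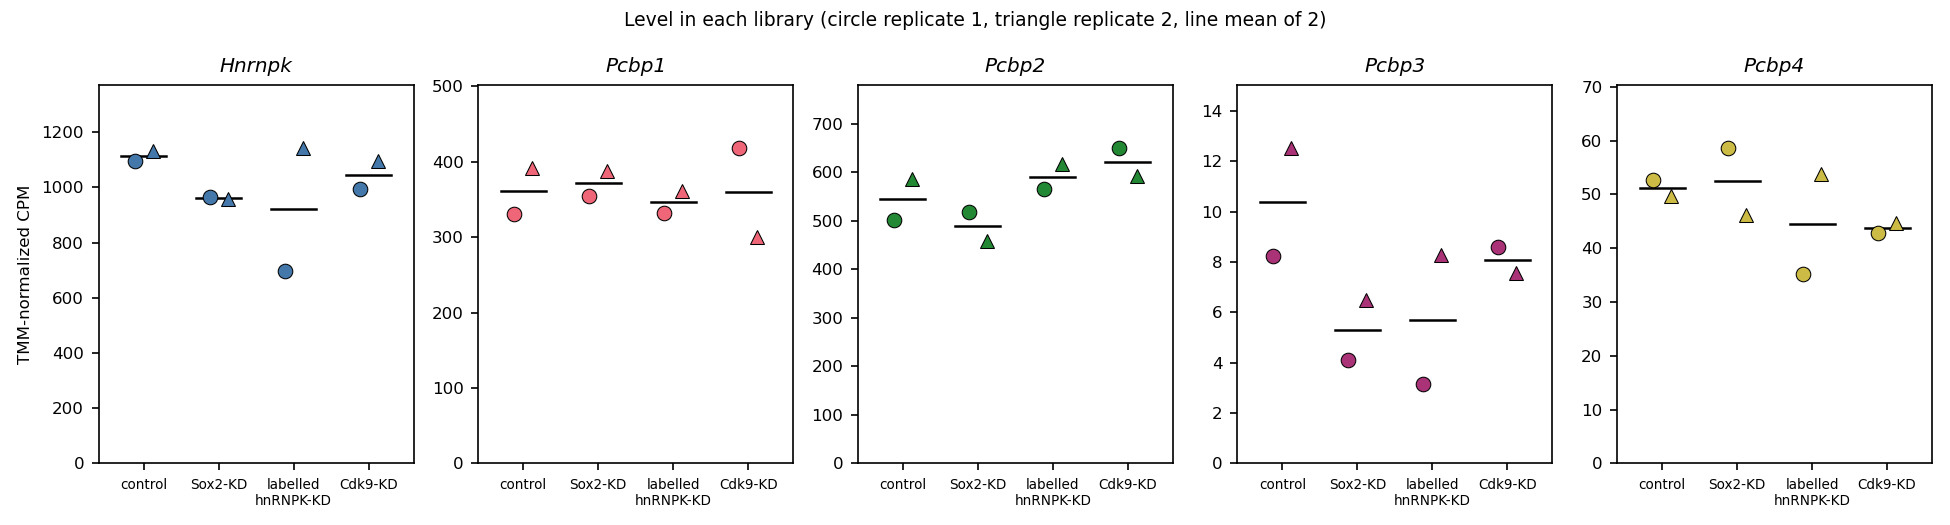
TMM-normalized CPM (vertical axis, from 0, a separate scale for each gene) of the 5 genes in each library of the 4 groups. Circles are replicate 1, triangles replicate 2 and lines the mean of 2 libraries. Hnrnpk, Pcbp3 and Pcbp4 have their lowest value in replicate 1 of the hnRNPK-KD-labelled libraries.

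Hnrnpk, itself the target of 1 group, stood at 1094 and 1131 CPM in control, 965 and 959 CPM in Sox2-KD, 697 and 1144 CPM in the hnRNPK-KD-labelled libraries, and 996 and 1094 CPM in Cdk9-KD. The Sox2-KD libraries were under those of control, the higher Cdk9-KD library and the lower control library both rounded to 1094 CPM (18506 and 19436 counts), and the hnRNPK-KD-labelled libraries lay on both sides. By group mean the order was control (1113 ± 25.6 CPM, SD, n = 2), Cdk9-KD (1045 ± 69.8), Sox2-KD (962 ± 4.37) and the hnRNPK-KD-labelled libraries (921 ± 316).

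Against control, Hnrnpk had a log2FC of −0.21 in Sox2-KD (SE 0.20, 95% interval −0.65 to 0.23, edgeR adjusted p = 0.624). In Cdk9-KD it was −0.09 (95% interval −0.53 to 0.35, adjusted p = 0.925), and in the hnRNPK-KD-labelled libraries −0.27 (95% interval −0.72 to 0.17, adjusted p = 0.808). None of the neighbours in the order differed beyond the fitted spread (adjusted p = 0.925 for control and Cdk9-KD, 0.796 for Cdk9-KD and Sox2-KD, 0.895 for Sox2-KD and the hnRNPK-KD-labelled libraries). That spread is estimated over all 8 libraries, with the hnRNPK-KD-labelled pair (SD 316 CPM) beside Sox2-KD (4.37) and control (25.6). With the fit limited to Sox2-KD and control, the log2FC of Hnrnpk was −0.23 (edgeR adjusted p = 0.313). Without replicate 2 of the hnRNPK-KD-labelled libraries the log2FC of Hnrnpk against control was −0.70, and without replicate 1 it was 0.03. Each of these fits holds 1 library of that group and assumes that it varies like the other groups. Whether replicate 1 by itself differed from control cannot be decided from them.

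Pcbp1, an intronless gene whose protein is an RNA regulator and iron chaperone, had group means within 347 to 372 CPM. Its levels were 331 and 392 CPM in control, 355 and 388 CPM in Sox2-KD, 332 and 362 CPM in the hnRNPK-KD-labelled libraries, and 419 and 300.1 CPM in Cdk9-KD. Both the highest and the lowest of the 8 libraries were thus the replicates of Cdk9-KD, and no shRNA group was apart from control. The log2FC against control was 0.04 in Sox2-KD (95% interval −0.35 to 0.43, adjusted p = 0.927), −0.06 in the hnRNPK-KD-labelled libraries (−0.45 to 0.33, adjusted p = 0.967) and −0.01 in Cdk9-KD (−0.39 to 0.38, adjusted p = 0.993). These edgeR intervals lie within the calling threshold of 0.6 on both sides, in Sox2-KD, Cdk9-KD and the hnRNPK-KD-labelled group. The order by mean was Sox2-KD (372 ± 23.5 CPM, SD, n = 2), control (361 ± 43.1), Cdk9-KD (359 ± 84.0) and the hnRNPK-KD-labelled libraries (347 ± 21.2), and its neighbours had adjusted p of 0.927, 0.993 and 0.984.

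Pcbp2, the broadly expressed partner of Pcbp1, stood at 502 and 586 CPM in control and at 519 and 459 CPM in Sox2-KD. It was 564 and 616 CPM in the hnRNPK-KD-labelled libraries and 650 and 592 CPM in Cdk9-KD. The Cdk9-KD libraries were above both control libraries and both Sox2-KD libraries, and the Sox2-KD and control libraries overlapped. The order by mean was Cdk9-KD (621 ± 41.2 CPM), the hnRNPK-KD-labelled libraries (590.4 ± 36.8), control (544 ± 59.5) and Sox2-KD (489 ± 42.2).

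The log2FC of Pcbp2 against control was 0.19 in Cdk9-KD (95% interval −0.13 to 0.51, edgeR adjusted p = 0.697), 0.12 in the hnRNPK-KD-labelled libraries (−0.20 to 0.44, adjusted p = 0.907) and −0.15 in Sox2-KD (−0.47 to 0.17, adjusted p = 0.619). The ends of the order, Sox2-KD and Cdk9-KD, were −0.35 apart on the log2 scale (SE 0.15, 95% interval −0.67 to −0.03, unadjusted p = 0.037, adjusted p = 0.193). Neighbours in the order had adjusted p of 0.971, 0.907 and 0.619. Without control replicate 1 the value was 0.05 in Cdk9-KD, −0.01 in the hnRNPK-KD-labelled libraries and −0.28 in Sox2-KD, and without control replicate 2 it was 0.28, 0.22 and −0.04. As for Pcbp1, the 3 intervals against control stay within the calling threshold.

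**Figure D2:**
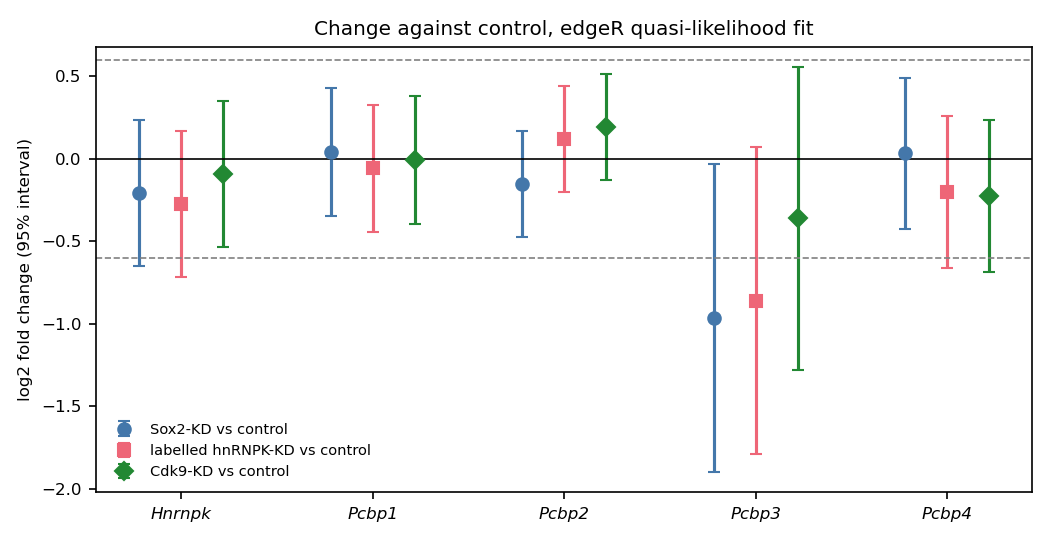
Log2 fold change against control (vertical axis) of the 5 genes in Sox2-KD (circles), the hnRNPK-KD-labelled libraries (squares) and Cdk9-KD (diamonds), with 95% intervals of the edgeR fit over 8 libraries; dashed lines mark the calling threshold of 0.6 in either direction. Of the 15 intervals, that of Pcbp3 in Sox2-KD (−1.90 to −0.03) is the one that does not hold 0.

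Pcbp3, a little-studied relative of Pcbp1 and Pcbp2, had the lowest counts and the widest spread between libraries. Its counts were 146 and 219 in control, 75 and 114 in Sox2-KD, 54 and 142 in the hnRNPK-KD-labelled libraries, and 147 and 128 in Cdk9-KD. As levels these were 8.22 and 12.5 CPM, 4.12 and 6.51 CPM, 3.17 and 8.26 CPM, and 8.59 and 7.57 CPM. Each Sox2-KD library was lower than each control library, and the other shRNA groups overlapped with control. By mean the order was control (10.4 ± 3.06 CPM, SD, n = 2), Cdk9-KD (8.08 ± 0.719), the hnRNPK-KD-labelled libraries (5.72 ± 3.61) and Sox2-KD (5.31 ± 1.69), with adjusted p of 0.827, 0.934 and 0.919 between neighbours.

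In Sox2-KD the mean of Pcbp3 was 51.2% of that in control (log2FC −0.97, SE 0.42, 95% interval −1.90 to −0.03). The unadjusted p was 0.0436 and the edgeR adjusted p 0.243, so that the difference did not pass the test over all genes. In the hnRNPK-KD-labelled libraries the log2FC was −0.86 (95% interval −1.79 to 0.07, adjusted p = 0.648), and it was −1.74 without replicate 2 and −0.34 without replicate 1. In Cdk9-KD it was −0.36 (95% interval −1.28 to 0.55, adjusted p = 0.827). The 3 intervals reach beyond the calling threshold, so that a change of that size was neither shown nor bounded for this gene. All 3 comparisons use the same control libraries, and without control replicate 2 the log2FC was −0.64 in Sox2-KD and −0.05 in Cdk9-KD. Without control replicate 1 it was −0.67 in Cdk9-KD.

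Pcbp4, described elsewhere as a p53-induced gene, stood at 52.7 and 49.7 CPM in control, 58.7 and 46.1 CPM in Sox2-KD, 35.2 and 53.8 CPM in the hnRNPK-KD-labelled libraries, and 42.8 and 44.7 CPM in Cdk9-KD. The Cdk9-KD libraries were below both control libraries, and the lowest library was replicate 1 of the hnRNPK-KD-labelled libraries. The log2FC against control was 0.03 in Sox2-KD (95% interval −0.42 to 0.49, edgeR adjusted p = 0.948), −0.20 in the hnRNPK-KD-labelled libraries (−0.66 to 0.26, adjusted p = 0.888) and −0.23 in Cdk9-KD (−0.68 to 0.23, adjusted p = 0.764). By mean the order was Sox2-KD (52.4 ± 8.89 CPM, SD, n = 2), control (51.2 ± 2.15), the hnRNPK-KD-labelled libraries (44.5 ± 13.2) and Cdk9-KD (43.8 ± 1.34), with adjusted p of 0.948, 0.888 and 0.993 between neighbours.

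Counting groups that did not overlap, 2 of 5 members were apart from control in Sox2-KD (Hnrnpk and Pcbp3, both lower), against 53.3% of all tested genes. In Cdk9-KD there were 3 (Hnrnpk and Pcbp4 lower, Pcbp2 higher), against 39.2% of all genes, of which Hnrnpk by less than 1 CPM, and in the hnRNPK-KD-labelled libraries there were 0, against 39.1%. Between shRNA groups, 1 member was apart in Sox2-KD against the hnRNPK-KD-labelled libraries (54.9% of all genes) and 4 in Sox2-KD against Cdk9-KD (49.8%). The median absolute log2FC of the 5 members was 0.15 in Sox2-KD, 0.20 in the hnRNPK-KD-labelled libraries and 0.19 in Cdk9-KD, beside 0.28, 0.20 and 0.22 over all tested genes.

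The replicates labelled hnRNPK-KD were far apart for 3 members, a pattern picked out after the values were seen. Replicate 1 minus replicate 2 was −0.72 on the log2 scale for Hnrnpk, −1.35 for Pcbp3 and −0.61 for Pcbp4. A larger difference between these replicates was found in 14.2%, 3.27% and 18.6% of all tested genes. For Pcbp1 and Pcbp2 the difference was −0.12 and −0.13, and the median absolute difference over all genes was 0.25. Hnrnpk, Pcbp3 and Pcbp4 had their lowest level of all 8 libraries in replicate 1, where 10.1% of all tested genes had theirs. With 1 such library there is no replicate check of this pattern.

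**Figure D3:**
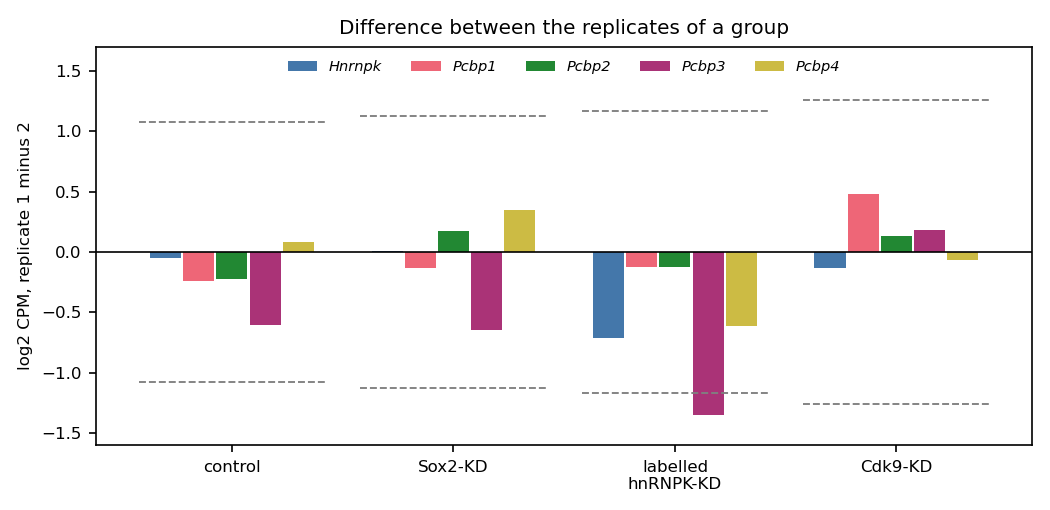
Difference in log2 CPM between replicate 1 and replicate 2 of each group (vertical axis) for the 5 genes (bars). Dashed lines mark the size that 5% of all tested genes exceed in that group. In the hnRNPK-KD-labelled libraries the bar of Pcbp3 (−1.35) passes its line at 1.17.

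Levels of different genes were compared per kilobase of all annotated exon bases. The medians over 8 libraries were 196 CPM per kilobase for Pcbp1, 162 for Hnrnpk, 111 for Pcbp2, 11.2 for Pcbp4 and 2.69 for Pcbp3. The ranges of Pcbp1 (164 to 229) and Hnrnpk (108 to 177) overlapped, as did those of Hnrnpk and Pcbp2 (88.2 to 125), through hnRNPK-KD-labelled replicate 1 alone, while Pcbp4 (8.26 to 13.7) and Pcbp3 (1.08 to 4.28) were each apart from all others. The order of the first 2 depends on the length used: per kilobase of the longest transcript the medians were 352 for Hnrnpk, 196 for Pcbp1 and 178 for Pcbp2, because the exons of all 34 Hnrnpk transcripts add up to 6466 bases and its longest transcript has 2970.

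As a share of the summed CPM per kilobase of exon of the 5 genes in the same library, Hnrnpk made up 32.9% ± 3.52 (SD, n = 8 libraries), Pcbp1 41.5% ± 3.43, Pcbp2 22.8% ± 2.38, Pcbp4 2.37% ± 0.347 and Pcbp3 0.520% ± 0.177. The share of Hnrnpk was 36.7% and 33.8% in control, 32.6% and 32.1% in Sox2-KD, 26.5% and 34.8% in the hnRNPK-KD-labelled libraries, and 29.6% and 36.8% in Cdk9-KD. Its lowest value was again replicate 1 of the hnRNPK-KD-labelled libraries. The ratio of Hnrnpk counts to the summed counts of Pcbp1 and Pcbp2, which needs no scaling between libraries, was 1.31 and 1.16 in control, 1.11 and 1.13 in Sox2-KD, 0.778 and 1.17 in the hnRNPK-KD-labelled libraries, and 0.931 and 1.23 in Cdk9-KD. The Cdk9-KD replicates differed most in this ratio after the hnRNPK-KD-labelled ones, since Hnrnpk was lower and both Pcbp1 and Pcbp2 were higher in Cdk9-KD replicate 1.

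**Figure D4:**
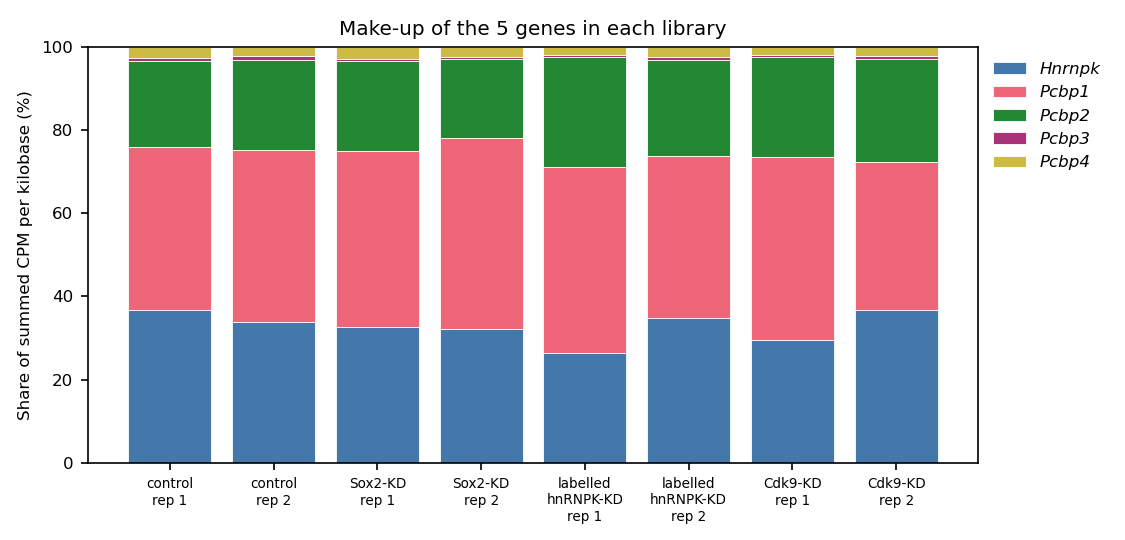
Share of the summed CPM per kilobase of exon (vertical axis, percent) that each of the 5 genes makes up in each of the 8 libraries. Hnrnpk ranges from 26.5% in replicate 1 of the hnRNPK-KD-labelled libraries to 36.8% in Cdk9-KD replicate 2, and Pcbp3 and Pcbp4 together stay below 4%.

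Reads of Hnrnpk can be shared with processed copies of the gene, and how the counting treated such reads is not given in the sources used here. Its copy Gm7964 (chromosome 7, 83755904 to 83757281) is 99.2% identical over 1378 bases, and its counts were 4.46% to 5.35% of those of Hnrnpk in the same library. They were 1040 and 976 in control, 911 and 867 in Sox2-KD, 530 and 980 in the hnRNPK-KD-labelled libraries, and 828 and 897 in Cdk9-KD. Gm7964 was low in the same library as Hnrnpk, and its counts are uncertain for that reason. Gm4130, the other copy of Hnrnpk with at least 10 counts in some library (97.4% identical over 973 bases), had 6 to 18 counts. The remaining copies of Hnrnpk (Gm6350 and Gm18855) had at most 2 counts, the 3 copies of Pcbp2 at most 1, and the other members had no copy of at least 80% identity over 300 bases. Adding the copies to their member called no member in any comparison.

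Genes on the opposite strand overlap 4 of the 5 members, and the strand setting of the counting is not stated. Map3k12 shares 1573 exon bases with Pcbp2 and had up to 672 counts. Rmi1 shares 330 bases with Hnrnpk and had up to 1104 counts. The antisense gene 1600020E01Rik shares 75 bases with Pcbp1 and had up to 284 counts, and Gpr62 shares 51 bases with Pcbp4 and had up to 5.

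Among all genes with an average log2 CPM over 3, the gene whose profile over the 8 libraries was closest to that of Hnrnpk was its copy Gm7964, with a root mean square difference of 0.07 on the log2 scale after centring each gene. Gm7964 and Hnrnpk can share reads, as stated above, and the part of shared reads in this likeness was not tested. Next came Gtdc1 (0.09) and Zfp414 (0.09), while the median over 9710 genes was 0.30. Closest to Pcbp1 were Mical3 (0.05), Cdc34 (0.05) and Cox5b (0.06), with a median over all genes of 0.26. Closest to Pcbp2 were Phf5a (0.05), Denr (0.05) and Gm10036 (0.05), with a median of 0.24. For Pcbp4 they were Slc29a2 (0.09), Mipep (0.12) and Garem1 (0.12), with a median of 0.30. No gene came as close to Pcbp3, for which Bach2 (0.26), Dus4l (0.30) and Pkig (0.31) were nearest and the median was 0.62. Genes that vary little are close to each other by this measure, and the 8 points share their libraries, so that these values are a description.

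The other KH-domain genes were compared as a list of 32, of which 31 were tested (Khdrbs2 was not). In Sox2-KD 0 were called higher and 1 lower, beside the 4.32% of all genes. This was Khdrbs3, which encodes a splicing regulator of the STAR family, at 29.9 and 26.2 CPM in control and 9.23 and 4.79 CPM in Sox2-KD. It was 31.7 and 36.9 CPM in the hnRNPK-KD-labelled libraries and 31.9 and 27.1 CPM in Cdk9-KD, so that both Sox2-KD libraries were below all 6 others. The log2FC in Sox2-KD was −2.0 (SE 0.28, edgeR adjusted p = 0.00499).

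With Khdrbs3, 6 of the 31 genes had an unadjusted p under 0.05 in Sox2-KD, a share near the 19.3% of all tested genes. The 5 not called were Fxr1 (−0.51), Igf2bp3 (−0.56), Mex3a (−0.43), Pno1 (−0.49) and Pnpt1 (−0.42), with adjusted p of 0.113 to 0.188. In Cdk9-KD there were 3 such genes (Mex3b, Ascc1 and Pnpt1; 10.4% of all tested genes), and in the hnRNPK-KD-labelled libraries 0. In both groups 0 of the 31 genes were called, beside 0.139% of all tested genes in Cdk9-KD and 0% in the hnRNPK-KD-labelled libraries. The smallest edgeR p belonged to Khdrbs1 in the hnRNPK-KD-labelled libraries (log2FC 0.34, adjusted p = 0.671) and to Ascc1 in Cdk9-KD (log2FC 0.47, adjusted p = 0.408). The list had a median log2FC of −0.03 in Sox2-KD, 0.08 in the hnRNPK-KD-labelled libraries and 0.09 in Cdk9-KD, beside 0.02 over all genes in each.

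**Figure D5:**
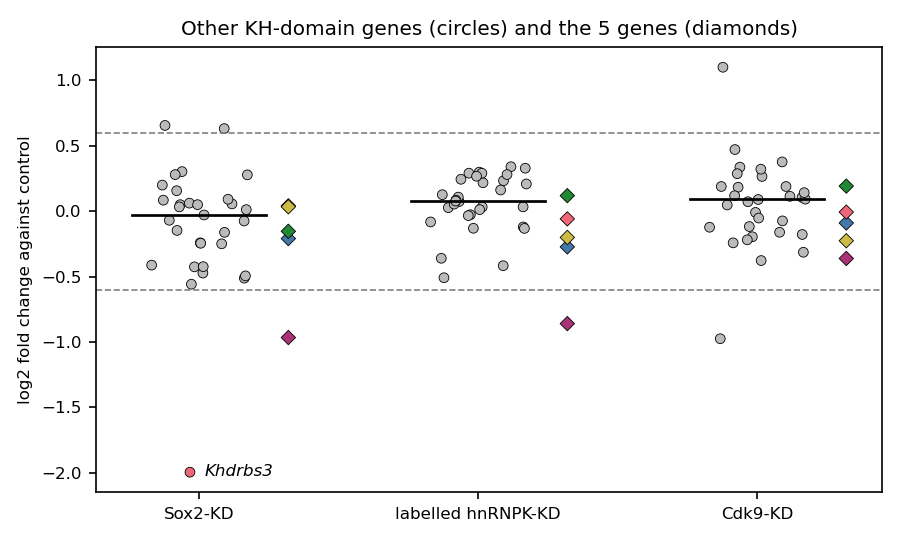
Log2 fold change against control (vertical axis) of the 31 tested KH-domain genes outside the family (circles, red where called, with their median as a line) and of the 5 family members (diamonds, in the gene colours of the plot of shares) in the 3 shRNA groups. Khdrbs3 in Sox2-KD, at −2.0, is the called gene; dashed lines mark 0.6 in either direction.

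Of 12 genes that supply, store or use the iron carried by PCBP proteins, 1 was called higher and 0 lower in Sox2-KD, beside 4.32% of all genes, and 0 were called in the hnRNPK-KD-labelled libraries and in Cdk9-KD, beside 0% and 0.139%. Slc40a1, which encodes the iron exporter ferroportin, had 15 and 19 counts in control and 217 and 202 in Sox2-KD, or 0.845 and 1.09 CPM against 11.9 and 11.5 CPM. It had 13 and 24 counts in the hnRNPK-KD-labelled libraries and 27 and 15 in Cdk9-KD. The rise in Sox2-KD was 3.59 on the log2 scale (SE 0.41, edgeR adjusted p = 0.00233), with both libraries above all 6 others. Krt8, Krt18, Dab2 and Gata6 were higher in the same 2 libraries, while Cdx2 and Gata4 were not, and the part of such cells in this rise was not tested. The smallest p of this list in the hnRNPK-KD-labelled libraries was that of the ferritin heavy chain gene Fth1 (log2FC −0.22, adjusted p = 0.822), and in Cdk9-KD that of Glrx3 (log2FC −0.37, adjusted p = 0.462).

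Over all tested genes the share called against control was 4.32% in Sox2-KD, 0% in the hnRNPK-KD-labelled libraries and 0.139% in Cdk9-KD. Any list thus holds 0 called genes in the hnRNPK-KD-labelled libraries. Of 6 genes for PRC1 subunits that work with hnRNPK and Xist, 0 were called against control. The smallest p belonged to Yaf2 in Sox2-KD (log2FC 0.49, adjusted p = 0.255) and to Pcgf5 in the hnRNPK-KD-labelled libraries (log2FC −0.32, adjusted p = 0.860) and in Cdk9-KD (log2FC −0.51, adjusted p = 0.565). None of the 3 genes of the p53 axis (Trp53, Mdm2 and Cdkn1a) was called against control. Cdkn1a, an inhibitor of cell cycle kinases, had the smallest p in Sox2-KD (log2FC 0.53, adjusted p = 0.158) and in the hnRNPK-KD-labelled libraries (log2FC −0.31, adjusted p = 0.757), and Mdm2 in Cdk9-KD (log2FC 0.63, adjusted p = 0.508). The Mdm2 value came from replicate 2, at 380.3 CPM, while replicate 1 (162 CPM) was below both control libraries (177 and 174 CPM). Of 4 genes reported to be under hnRNPK control, Alox15 was not tested and 0 of the other 3 were called. Their smallest p was that of Src in Sox2-KD (log2FC 0.38, adjusted p = 0.199) and of Myc in the hnRNPK-KD-labelled libraries (log2FC 1.16, adjusted p = 0.603) and in Cdk9-KD (log2FC 1.05, adjusted p = 0.514). The control libraries were far apart for Myc, at 3.89 and 11.97 CPM. The hnRNPK-KD-labelled libraries overlapped them, at 10.4 CPM in replicate 1 and 25.0 CPM in replicate 2, and Cdk9-KD stood at 20.7 and 12.01 CPM.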

How the data were processed

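RNA-seq was done on poly(A) RNA of E14 ESCs, in 4 groups of 2 replicates. Per the labels and the methods, the authors trimmed reads with Trimmomatic, aligned them with STAR (2.7.9a in the submitters' processing notes) to mm10 with GENCODE vM23, counted reads per gene with featureCounts 2.0.1, and deposited raw counts, neither normalized nor pooled. Counts per gene do not separate isoforms.

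Here 16504 of 55335 genes passed filterByExpr (minimum count 10, minimum total count 15). All 8 libraries entered 1 quasi-likelihood fit of edgeR 4.0.16 (R 4.3.3) with TMM and a group term (biological coefficient of variation 0.186), with p-values adjusted by Benjamini-Hochberg. The script was tested on simulated data. DESeq2 1.42.0 was an alternative. Gene positions and lengths came from GENCODE vM21 on GRCm38, which held all 5 members under the same identifier versions. Copies were searched with BLAST 2.17.0. Figures used matplotlib 3.10.9.

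The members and lists were chosen with earlier results of these data known. Named genes are the members, their copies with at least 10 counts, each list gene called against control or else the smallest p of its list, and the 3 profiles closest to each member. The other genes overlapping a member, the KH-domain genes at an unadjusted p under 0.05, and Cdkn1a and Cdk9 in other comparisons, were named after their values were seen.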

Additional observations from a re-analysis of the deposited data

Results flagged for a closer look

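Genes of the family and of the 6 wider lists were looked at again where 2 shRNA groups differed by the edgeR test of that difference. Khdrbs3 was lower in Sox2-KD than in the hnRNPK-KD-labelled libraries (log2FC −2.29, SE 0.28, adjusted p = 0.00290) and than in Cdk9-KD (log2FC −2.07, SE 0.28, adjusted p = 0.00258), in 2 of 2 libraries each time. Slc40a1 was higher in Sox2-KD than in the hnRNPK-KD-labelled libraries (log2FC 3.43, SE 0.41, adjusted p = 0.00282) and than in Cdk9-KD (log2FC 3.24, SE 0.40, adjusted p = 0.00199), again in 2 of 2 libraries. The target Sox2 was lower in Sox2-KD than in the hnRNPK-KD-labelled libraries (log2FC −0.73, SE 0.16, adjusted p = 0.0269) and than in Cdk9-KD (log2FC −0.90, SE 0.16, adjusted p = 0.00855). Cdk9 was higher in Sox2-KD than in Cdk9-KD, where it is the target (log2FC 1.03, SE 0.18, adjusted p = 0.00734). Cdkn1a was higher in Sox2-KD, at 412 and 377 CPM, than in the hnRNPK-KD-labelled libraries, at 262 and 178 CPM (log2FC 0.84, SE 0.19, adjusted p = 0.0317), in 2 of 2 libraries. None of the 5 family members met this rule, and with 2 libraries a group no library could be tested as an outlier.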

How the results depend on the processing

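Under 17 alternatives a comparison (other scalings, filters, tools and samples, and each library left out in turn), and with no fold threshold, the count of members called was 0 in each of the 6 comparisons. Khdrbs3 and Slc40a1 were called in Sox2-KD against control in 17 of 17 alternatives and Sox2 in 6 of 17. For Cdk9-KD against control the wider lists held 0 called genes, but 1 (Cdk9 itself) with DESeq2, 1 with the likelihood ratio test, and 0 to 1 when a library was left out. Over all genes, Cdk9-KD against control had 23 called genes, 222 with DESeq2, 279 with the likelihood ratio test, 15 with the replicate block, 1 without control replicate 1, 0 without control replicate 2, and 6 with Cdk9-KD replicate 2 left out. For the hnRNPK-KD-labelled libraries it was 0, 83 and 87 (DESeq2 and likelihood ratio test), and for Sox2-KD 713, 1350 with the likelihood ratio test, 170 and 151 without control replicate 1 or 2, and 343 and 144 without Sox2-KD replicate 1 or 2. Between shRNA groups, the likelihood ratio test called 1690 genes in place of 974 (Sox2-KD against the hnRNPK-KD-labelled libraries), 1869 in place of 1210 (Sox2-KD against Cdk9-KD) and 67 in place of 0 (DESeq2: 56), and leaving out a library gave 90 to 1100, 337 to 1286 and 0 to 6. Fits without a library hold fewer samples, and the cause of the other differences was not tested. The replicate block called 0 members in each comparison and lost the call of Sox2 in Sox2-KD (adjusted p = 0.0669). Deviations of the replicates from their group mean correlated between −0.22 and 0.21 over the 6 pairs of groups. A correlation over all genes cannot decide whether replicate numbers pair the groups.

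With library totals the level of Hnrnpk in Sox2-KD was 1003 CPM. With the length of the longest transcript the shares were 46.0% for Hnrnpk, 26.8% for Pcbp1 and 3.20% for Pcbp4. No member's log2FC that turned its direction had been called. Against control, Pcbp4 in Sox2-KD was −0.0010 with no filter. With library totals, Pcbp3 was 0.0022 in Sox2-KD against the hnRNPK-KD-labelled libraries, and Pcbp4 0.0070 in Cdk9-KD against those. Ranges with a library left out that moved over 1.5 times but kept their sign were −0.2789 to −0.0448 (Sox2-KD) and 0.0466 to 0.2802 (Cdk9-KD) for Pcbp2, −0.6725 to −0.0533 (Cdk9-KD) and −1.7356 to −0.3398 (hnRNPK-KD-labelled) for Pcbp3, −1.3346 to −0.6376 (Sox2-KD) for Pcbp3, and −0.1599 to −0.056 (Cdk9-KD) for Hnrnpk, all against control. Ranges that crossed 0 were, in Sox2-KD against control, −0.0937 to 0.1608 for Pcbp1 and −0.16 to 0.19 for Pcbp4. In the hnRNPK-KD-labelled libraries they were −0.698 to 0.0307 for Hnrnpk, −0.1971 to 0.0569 for Pcbp1, −0.010 to 0.2237 for Pcbp2 and −0.5621 to 0.063 for Pcbp4. In Cdk9-KD Pcbp1 ran from −0.30 to 0.21. For Sox2-KD against the hnRNPK-KD-labelled libraries they were −0.25 to 0.48 for Hnrnpk, −0.64 to 0.76 for Pcbp3 and −0.0411 to 0.5837 for Pcbp4, and for Sox2-KD against Cdk9-KD −0.18 to 0.33 for Pcbp1. For Cdk9-KD against the hnRNPK-KD-labelled libraries they were −0.15 to 0.57 for Hnrnpk, −0.22 to 0.27 for Pcbp1, −0.0118 to 0.138 for Pcbp2, −0.0554 to 1.34 for Pcbp3 and −0.32 to 0.30 for Pcbp4.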
